A study of Mus musculus with 12 samples.

Results

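Mitochondrial ribosomal proteins are the nuclear-encoded proteins of the ribosome inside mitochondria. Their genes were taken as those with a symbol of Mrpl or Mrps followed by digits, each read through its brightest probe set that carries exactly 1 gene symbol. The rule found 77 of the 19938 measured genes. By the current subunit nomenclature 50 of them belong to the large subunit and 26 to the small subunit, and Mrps36 is now known as a component of the 2-oxoglutarate dehydrogenase complex. The data are 12 single-colour microarrays of satellite cells, the stem cells of skeletal muscle, sorted by flow cytometry for green fluorescence from mice that carry 1 copy of the Pax7-ZsGreen reporter (strain label C57BL/6), with the same reporter at every stage. There are 3 arrays for each of 4 stages: fetal (E17.5, from both forelimb and hindlimb, 4 mice), adolescent (postnatal day 21, hindlimb, 6 mice), adult (2 to 3 months, hindlimb, 8 mice) and aged (over 1 year, hindlimb, 8 mice). Cells of several animals were pooled, sort gates were set by age, and fetal cells alone included forelimb, so gate, limb and age cannot be told apart there. Nothing in the labels says that the 3 replicates of a stage came from separate pools, so the p-values rest on array-to-array spread within stages, and that spread may be purely technical.

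The mitochondrial ribosome translates the few messages encoded by mitochondrial DNA, all of which specify core subunits of the respiratory chain and ATP synthase. Its RNA is made from mitochondrial DNA, while every one of its proteins is encoded in the nucleus, made in the cytosol and imported. Some of these proteins descend from bacterial ribosomal proteins and others have no bacterial counterpart. Satellite cells divide in fetal and growing muscle and are mostly quiescent in adult muscle, a state with low mitochondrial content.

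Values are log2 signals, so a difference of 1 is a 2-fold change. Satellite cell identity was checked with 12 marker genes, whose mean was 9.29 to 9.31 on the fetal arrays and 10.41 to 10.72 on the other 9. Pax7 itself read 10.36 to 10.51 in fetal, 10.84 to 11.03 in adolescent, 11.45 to 11.69 in adult and 11.51 to 11.71 in aged cells. Endothelial, fibroblast and macrophage markers were detected as well: the endothelial list of 10 genes averaged 6.94 to 7.83 in fetal, 8.54 to 9.10 in adolescent, 7.87 to 7.94 in adult and 8.75 to 9.34 in aged cells. Over all arrays the fibroblast list (7 genes) averaged 8.19 to 9.28, the macrophage list (8 genes) 5.85 to 6.86 and the erythroid list (3 genes) 5.70 to 6.69. Myofibre genes averaged 7.06 to 8.01 in fetal, 8.52 to 8.89 in adolescent, 7.67 to 8.02 in adult and 7.76 to 7.87 in aged cells. Arrays differed in background signal too. Olfactory and vomeronasal receptor genes, 1205 probe sets averaged as a background measure, had a mean signal of 4.46 and 4.50 on adult arrays 2 and 3. The same mean was 4.30 on aged array 1, against 3.79 to 3.91 on the arrays other than these 3. On these 3 arrays the values of all genes also spread less (SD 1.74, 1.73 and 1.84, against 1.96 to 2.02). The labels name no batch.

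The 77 genes stood at a common level in fetal and adolescent cells and lower in adult and aged cells, with adult replicate 1 as an exception. Their mean was 8.12, 8.23 and 8.30 on the fetal arrays and 8.22, 8.12 and 8.12 on the adolescent arrays. It was 8.12 on adult replicate 1 but 7.47 and 7.46 on adult replicates 2 and 3, and 7.68, 7.73 and 7.72 on the aged arrays. The fetal and adolescent arrays overlapped, the aged arrays all lay below them, and the adult stage was split. Stage means were 8.22 ± 0.09 fetal, 8.15 ± 0.06 adolescent, 7.68 ± 0.38 adult and 7.71 ± 0.03 aged (SD, n = 3 each). In bulk RNA of this kind, fewer cells with a high level and less RNA per cell cannot be told apart.

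**Figure D1:**
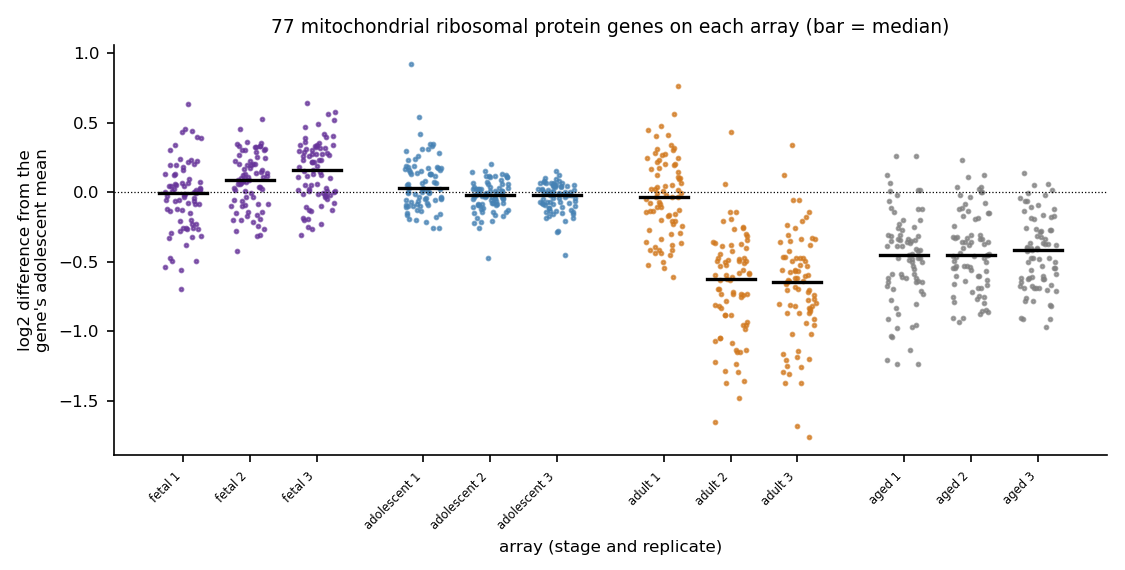
Each dot is 1 of the 77 genes on 1 array, as the log2 difference from that gene's mean over the 3 adolescent arrays (y axis), for the 12 arrays in stage order (x axis); bars are medians. Adult replicate 1 has a median of -0.03, while the 3 aged arrays have medians of -0.45, -0.45 and -0.42.

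Both subunits were lower in aged cells and on adult replicates 2 and 3, and a difference between them was not tested. The 50 large-subunit genes averaged 8.25, 8.36 and 8.43 in fetal cells, 8.33, 8.23 and 8.22 in adolescent cells, 8.22, 7.54 and 7.52 in adult cells (replicate 1 first) and 7.78, 7.77 and 7.77 in aged cells. The 26 small-subunit genes averaged 7.92, 8.03 and 8.11 in fetal cells, 8.04, 7.96 and 7.95 in adolescent cells, 7.98, 7.38 and 7.40 in adult cells and 7.53, 7.70 and 7.67 in aged cells. In both lists the aged arrays lay below every adolescent array, and adult replicate 1 lay level with the adolescent arrays. Across the 4 stages, 44 of 77 genes (57.1%) passed limma's F-test at a Benjamini-Hochberg adjusted p under 0.05, where 41.6% of all genes did. Without adult replicate 1 the count was 66 (85.7%), where 71.2% of all genes passed, and averaging arrays 2 and 3 within each stage gave 9 (11.7%, against 17.2%). The F-test gives no direction, which the pairwise comparisons below supply.

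**Figure D2:**
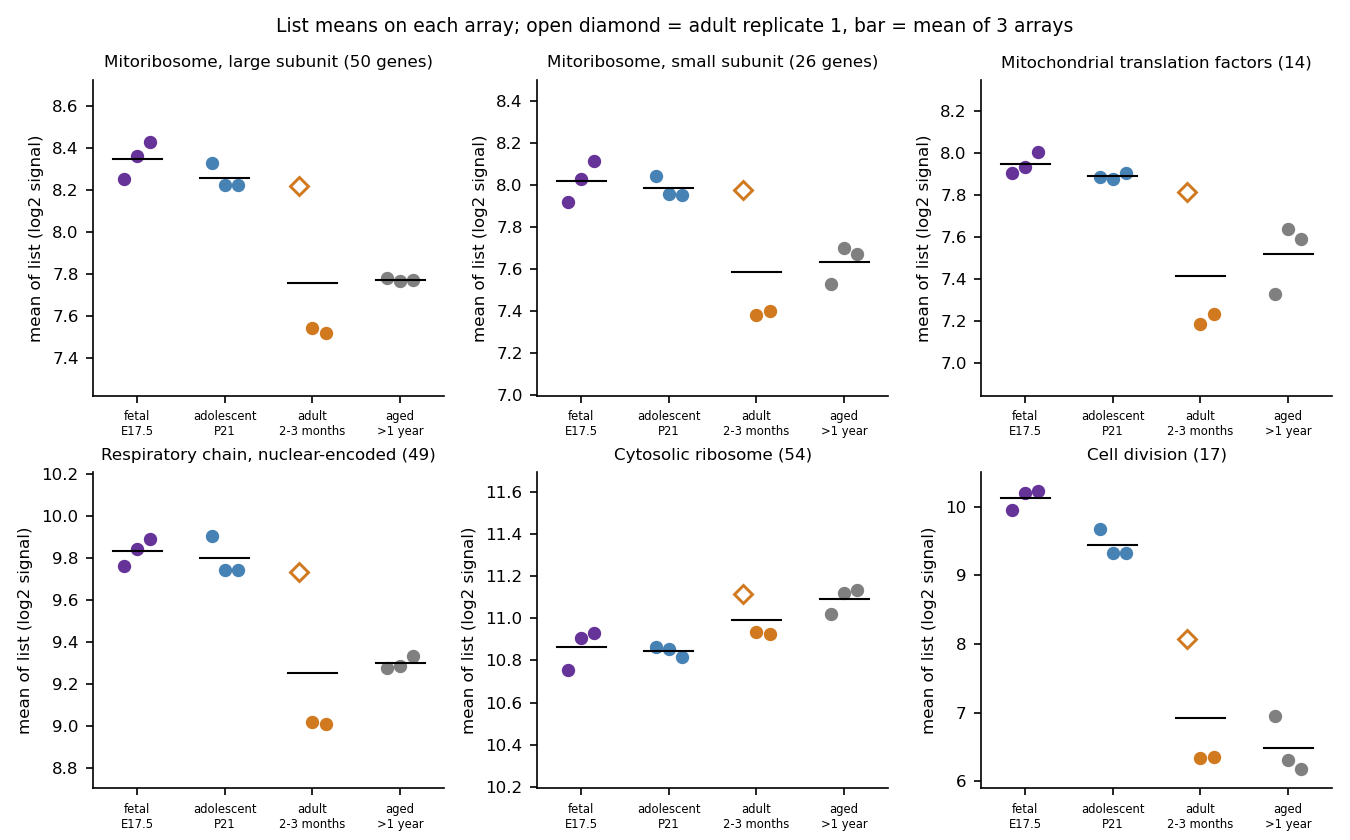
Mean log2 signal of 6 gene lists (y axis) on each array, by stage (x axis); dots are arrays, the open diamond is adult replicate 1 and bars are means of 3 arrays. The large-subunit, small-subunit, translation factor and respiratory chain lists are low on adult replicates 2 and 3 and on the aged arrays, cytosolic ribosomal proteins are not, and adult replicate 1 lies near the adolescent level in all 4 mitochondrial lists.

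Aged cells had lower signals than adolescent cells for nearly the whole set, and this comparison does not involve the adult arrays except through the shared estimate of spread. The median difference was -0.44 over the 77 genes and -0.01 over all genes, and 73 of 77 differences were below 0. With limma's moderated test 26 of the 77 genes fell and 0 rose, where 11.5% of all genes fell and 8.08% rose. The aged arrays lay wholly below the adolescent arrays for 56 of 77 genes (72.7%), against 22.6% of all genes. With 3 arrays against 3 an exact rank test of a single gene cannot give a p below 0.1. Without adult replicate 1, whose spread enters the shared variance, 50 fell and 0 rose (16.4% and 11.0% of all genes). Leaving out adolescent replicate 2 gave 15 calls (19.5%, against 13.7% of all genes called in either direction) and aged replicate 3 gave 16 (20.8%, against 13.5%). Averaging replicates 2 and 3, which leaves 2 arrays a stage, gave 2 (2.60%, against 5.63%). Without the 3 arrays of raised receptor signal the median was -0.44. Adult replicate 1 is then alone in its stage and the adult spread leaves the shared variance. Calls of that fit are therefore not set against the others.

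Among the aged calls were 19 large-subunit genes, 6 small-subunit genes and Mrps36. In the large subunit 12 of 30 genes with a bacterial counterpart fell (median -0.50) and 7 of 20 without one did (median -0.46). In the small subunit 2 of 16 genes with a bacterial counterpart fell (median -0.25) and 4 of 10 without one did (median -0.45). Over all genes 11.5% fell, and the 2 of 16 lie near that share. The difference between these classes was not tested.

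Adult cells compared with adolescent cells gave the same direction with a wider spread. The median difference was -0.46 over the 77 genes and 0.03 over all genes, and 74 of 77 differences were below 0. In this comparison 30 genes fell and 0 rose, where 15.2% of all genes fell and 4.56% rose. The adult arrays lay wholly below the adolescent arrays for 30 genes (39.0%), against 22.4% of all genes. The 30 calls were 20 large-subunit genes, 9 small-subunit genes and Mrps36. Without adult replicate 1, 66 genes fell and Mrps16 rose (28.6% and 25.4% of all genes), the median was -0.65, and adult replicates 2 and 3 lay below every adolescent array for 75 of 77 genes (97.4%, against 38.8% of all genes). Calls numbered 18, 15 and 19 without adolescent replicates 1, 2 and 3 in turn, where 11.3% to 12.4% of all genes were called in either direction. They numbered 13 and 14 without adult replicates 2 and 3 in turn (9.41% and 9.72% of all genes), and 0 with replicates 2 and 3 averaged (1.62%). After repeated quantile normalization 17 were called (22.1%), near the 19.9% of all genes, and the median was -0.21.

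The adult and aged comparisons share the adolescent arrays. Side by side, 20 genes fell in both, which is 66.7% of the 30 adult calls and 76.9% of the 26 aged calls, and 36 fell in either. The 20 were Mrpl2, Mrpl3, Mrpl11, Mrpl15, Mrpl16, Mrpl18, Mrpl39, Mrpl47, Mrpl48, Mrpl49, Mrpl51, Mrpl57, Mrps5, Mrps18c, Mrps22, Mrps23, Mrps27, Mrps30, Mrps35 and Mrps36. All 30 and all 26 calls were kept without adult replicate 1. Alongside them, all 17 measured cell division genes fell in adult cells (median -2.61) and in aged cells (median -3.07), and 6 of 12 myofibre genes fell in each (medians -0.93 and -0.90). Mki67, a proliferation marker, read 10.54 to 10.56 in adolescent cells, 9.28, 6.58 and 6.44 in adult cells and 7.38, 6.46 and 6.15 in aged cells. Of 10 endothelial genes 6 fell in adult cells (median -0.91), and 0 passed in aged against adolescent cells (median 0.38, with 1 at an unadjusted p under 0.05 in limma). Of 7 fibroblast genes 2 fell in each, and of 8 macrophage genes 2 rose in aged cells. Over all genes 15.2% fell in adult cells, and 11.5% fell and 8.08% rose in aged cells. Lists of 7 and 8 genes are too small for 2 calls to be read as a change of a cell type. The part of these cell types and of cell division in the differences was not tested.

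**Figure D3:**
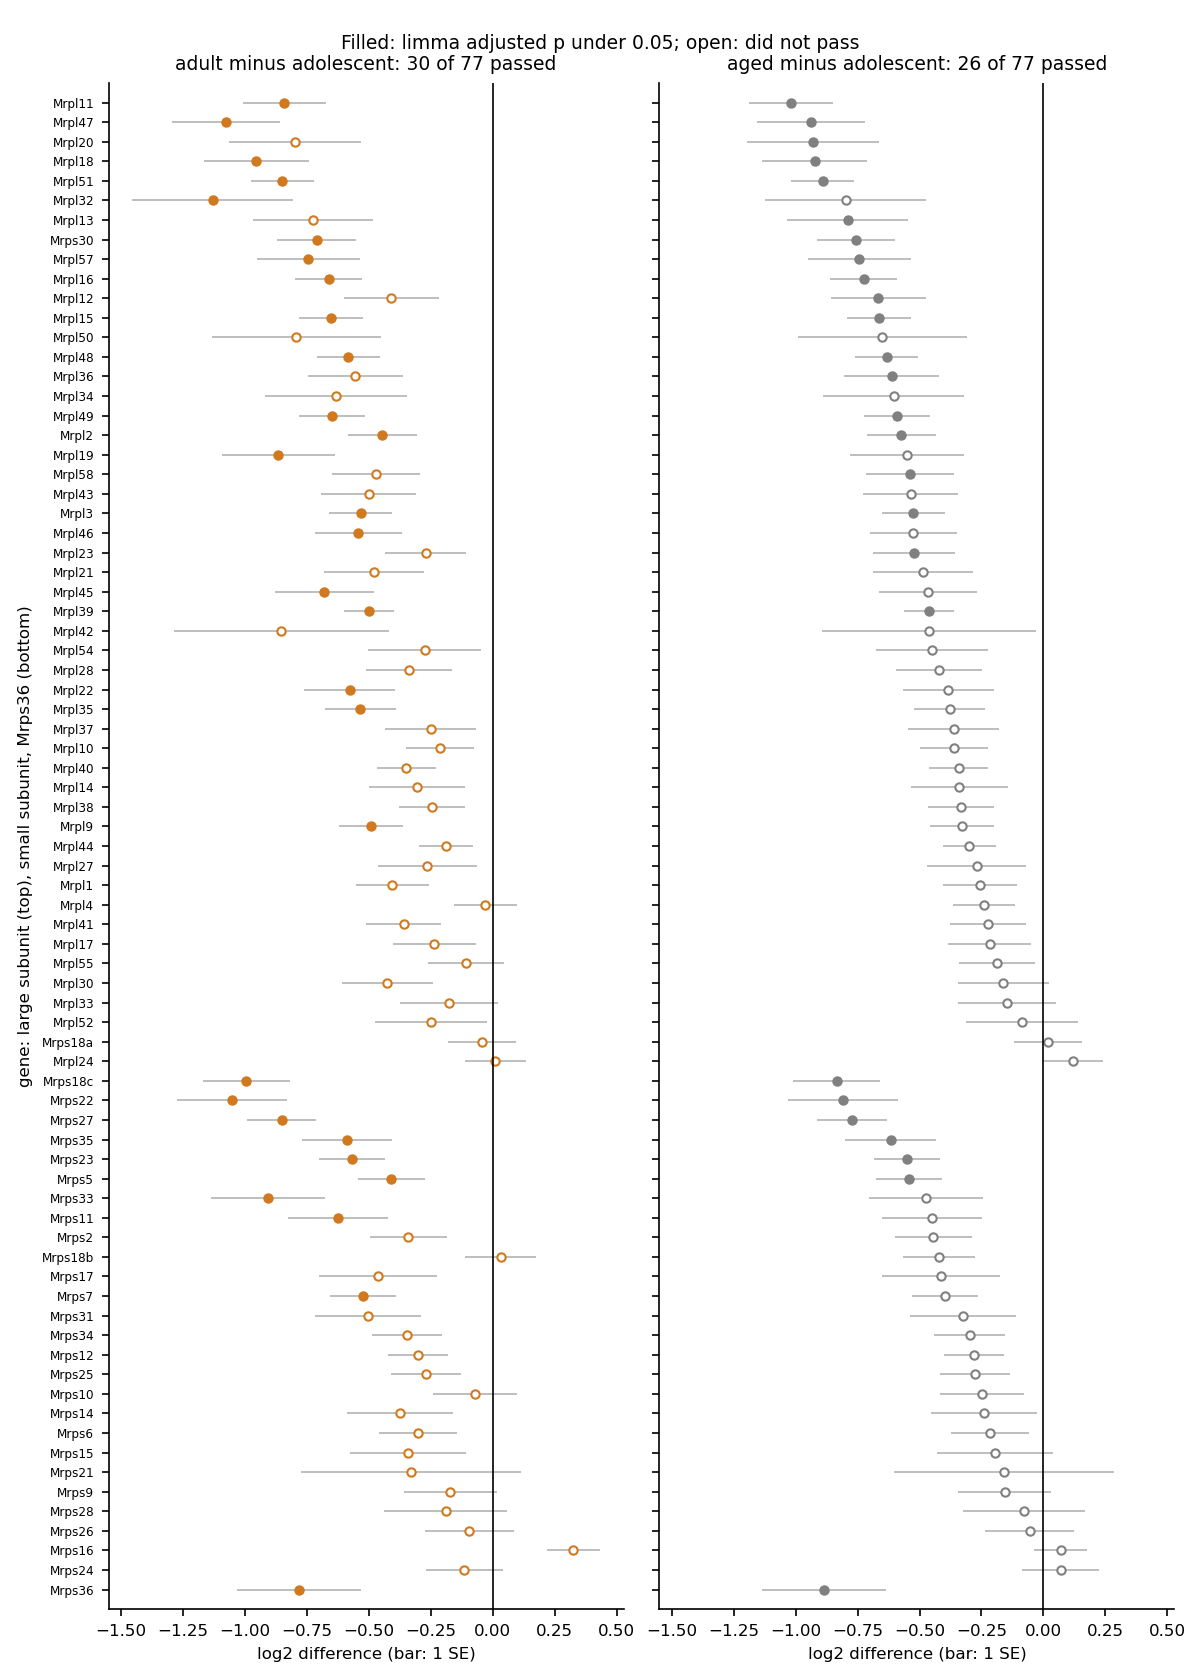
Log2 difference of each gene (rows) with 1 SE (x axes), adult minus adolescent on the left and aged minus adolescent on the right; filled circles passed at an adjusted p under 0.05. Of 77 genes 74 lie left of 0 on the left and 73 on the right.

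Mrpl51, a large-subunit protein without a bacterial counterpart, had the smallest p in both comparisons. It read 8.64, 8.91 and 8.96 in fetal cells, 8.54, 8.71 and 8.62 in adolescent cells, 8.01, 7.53 and 7.77 in adult cells and 7.75, 7.74 and 7.71 in aged cells. All 6 adult and aged arrays lay below all 6 earlier ones, adult replicate 1 included. The fall was 1.85-fold in aged cells (log2 difference -0.89 ± 0.13, adjusted p = 0.000335 by limma) and 1.80-fold in adult cells (-0.85 ± 0.13, adjusted p = 0.000867). Here ± is the SE pooled over all stages with n = 3 each, as in every limma value from the fit to all arrays. A second Mrpl51 probe set gave -0.88 and -1.03.

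Mrpl11, a homologue of the bacterial protein at the site where translation factors dock, had the largest fall in aged cells. Its signals were 8.47, 8.58 and 8.67 in fetal, 8.25, 8.27 and 8.31 in adolescent, 7.88, 7.32 and 7.11 in adult and 7.04, 7.43 and 7.31 in aged cells. The aged fall was -1.02 ± 0.17 (adjusted p = 0.000947) and the adult fall -0.84 ± 0.17 (adjusted p = 0.00474). Again every adult and aged array was below every adolescent one, with adult replicate 1 closest to them.

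Mrps27, a small-subunit protein with pentatricopeptide repeats, read 8.00, 8.14 and 8.29 in fetal, 7.87, 7.90 and 8.04 in adolescent, 7.39, 6.89 and 6.98 in adult and 6.98, 7.27 and 7.25 in aged cells. It fell in adult cells (-0.85 ± 0.14, adjusted p = 0.00147) and in aged cells (-0.77 ± 0.14, adjusted p = 0.00173). The groups did not overlap in either comparison. Mrps18c, the small-subunit counterpart of bacterial S18, read 7.99, 8.12 and 8.29 in fetal, 7.90, 7.71 and 7.70 in adolescent, 7.27, 6.48 and 6.58 in adult and 6.80, 7.00 and 7.01 in aged cells. It fell by -0.99 ± 0.18 in adult and -0.83 ± 0.18 in aged cells (adjusted p = 0.00232 and 0.00478), and its signals also stepped down between the fetal and adolescent arrays, without overlap. Mrps22, a small-subunit protein whose human gene is linked to a mitochondrial disease of infants, read 8.06, 8.18 and 8.11 in adolescent, 7.70, 6.74 and 6.74 in adult and 6.98, 7.51 and 7.43 in aged cells. It fell by -1.05 ± 0.22 in adult and -0.81 ± 0.22 in aged cells (adjusted p = 0.00616 and 0.021).

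Further large-subunit genes with small p values differed in the size of their fall. Mrpl39 read 9.20, 9.34 and 9.37 in adolescent, 8.88, 8.69 and 8.83 in adult and 8.95, 8.86 and 8.71 in aged cells, and adult replicate 1 here lay close to its own stage (-0.50 ± 0.10 in adult and -0.46 ± 0.10 in aged cells). Its adult call was lost when the arrays were scaled to equal spread (adjusted p = 0.13), as was that of Mrpl48 (adjusted p = 0.0609), while both kept their aged calls. Mrpl15, Mrpl16 and Mrpl49 fell by between -0.59 ± 0.13 and -0.73 ± 0.14 in aged cells and by between -0.65 ± 0.13 and -0.66 ± 0.14 in adult cells. Mrpl48 fell by -0.63 ± 0.13 in aged and -0.58 ± 0.13 in adult cells. Mrpl47 fell by -0.94 ± 0.22 and -1.08 ± 0.22 in these comparisons, but its second, dimmer probe set differed by -0.35 and -0.20. Mrpl18, singled out after its values were seen, fell by -0.92 ± 0.21 and -0.95 ± 0.21. Mrpl3, whose human gene is linked to cardiomyopathy, fell by -0.53 ± 0.13 in each. Mrpl40 (-0.34 ± 0.12 in aged and -0.35 ± 0.12 in adult cells) and the stalk protein Mrpl10 (-0.36 ± 0.14 and -0.21 ± 0.14) did not pass in either. Mrpl22 fell in adult cells (-0.58 ± 0.18, adjusted p = 0.0445), a call lost when arrays were scaled to equal spread (adjusted p = 0.054), and did not pass in aged cells (-0.38 ± 0.18).

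**Figure D4:**
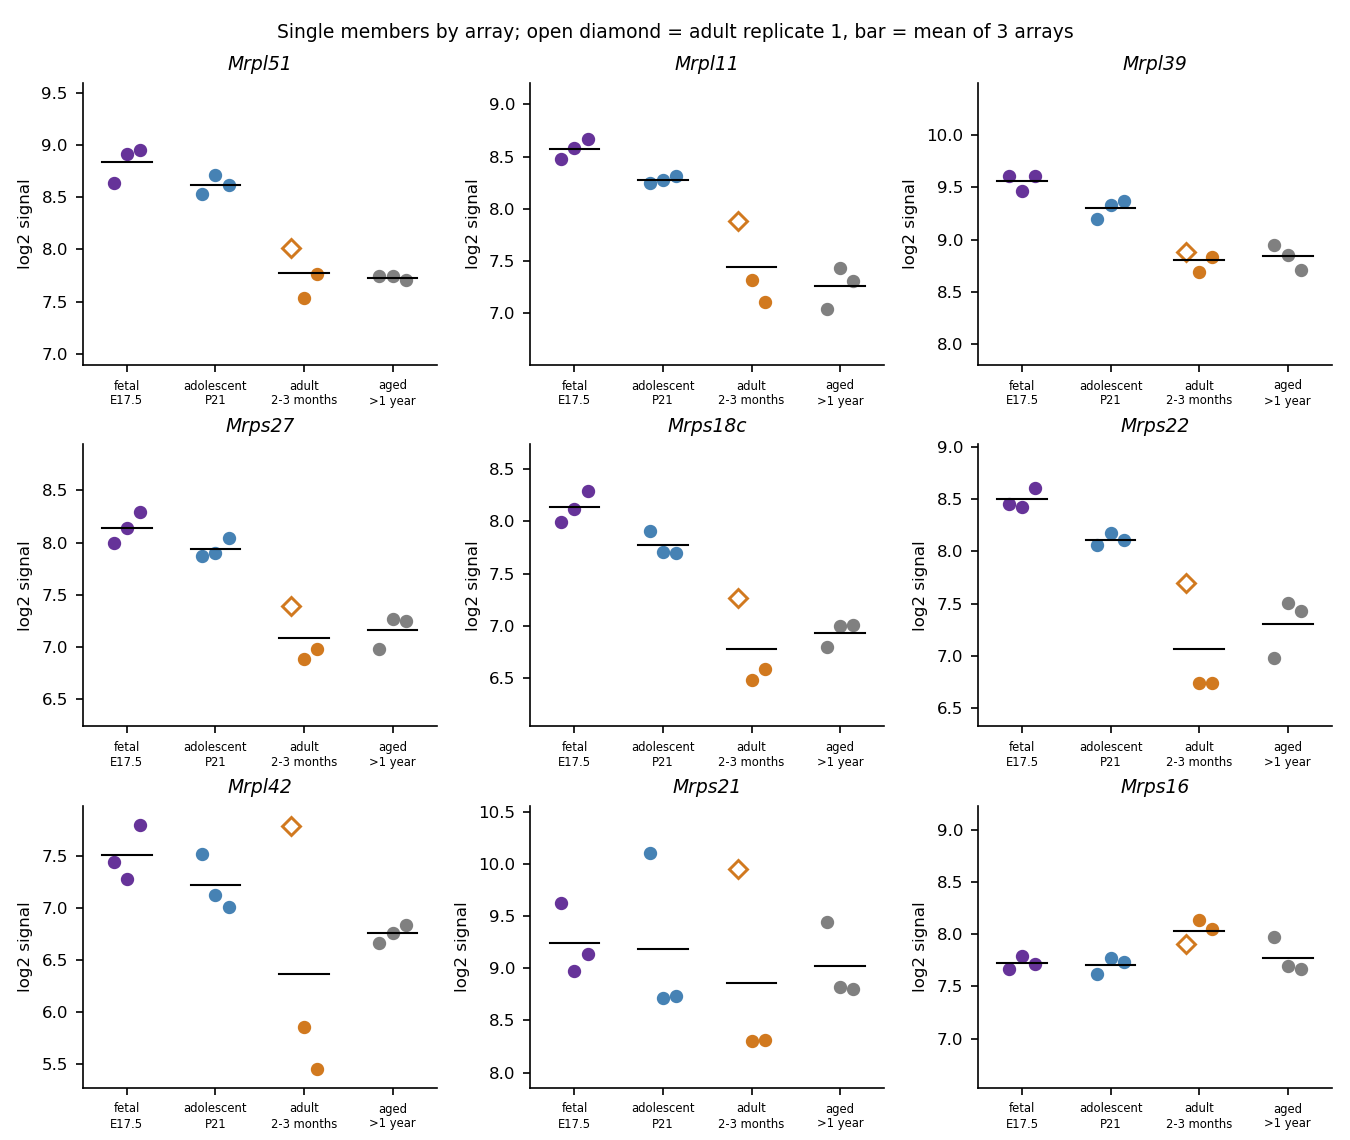
Log2 signal (y axis, each panel spanning an equal range) of 9 genes on each array by stage (x axis); dots are arrays, the open diamond is adult replicate 1 and bars are means of 3 arrays. Mrpl51, Mrpl11, Mrpl39, Mrps27, Mrps18c and Mrps22 have all adult and aged arrays below the adolescent arrays, Mrpl42 and Mrps21 have adult replicate 1 high, and Mrps16 has its highest signals in adult cells.

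A gene was chosen for display of its promoter by the size of its F-test p, and the 5 with the smallest were Mrpl51, Mrps27, Mrpl11, Mrps18c and Mrpl39. The sequences are the 250 bases before the annotated start, from RefSeq on GRCm38.p6, written 5′ to 3′ on the gene's strand. They lie at chr6:125191950-125192199 (plus strand) for Mrpl51, chr13:99344536-99344785 (plus) for Mrps27, chr19:4962056-4962305 (plus) for Mrpl11, chr5:100798509-100798758 (plus) for Mrps18c and chr16:84735245-84735494 (minus) for Mrpl39. Capitals mark matches on either strand to 5 motifs of factors known for genes of mitochondrial function or growth: GCGCANGCG (Nrf1), CCGGAAG (the ETS family, which includes Gabpa), AANATGGCG (Yy1), CACGTG (the E-box bound by Myc) and GGGCGG (Sp1).
Mrpl51: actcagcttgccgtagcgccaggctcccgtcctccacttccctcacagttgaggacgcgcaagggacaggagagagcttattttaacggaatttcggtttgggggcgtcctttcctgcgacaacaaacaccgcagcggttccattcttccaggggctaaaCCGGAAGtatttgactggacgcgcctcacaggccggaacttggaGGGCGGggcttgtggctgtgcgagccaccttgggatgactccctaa
Mrps27: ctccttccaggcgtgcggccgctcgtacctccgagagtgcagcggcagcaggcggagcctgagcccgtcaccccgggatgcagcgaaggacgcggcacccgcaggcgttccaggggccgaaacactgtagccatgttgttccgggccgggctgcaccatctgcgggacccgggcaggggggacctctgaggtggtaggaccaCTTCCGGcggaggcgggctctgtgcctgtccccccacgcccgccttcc
Mrpl11: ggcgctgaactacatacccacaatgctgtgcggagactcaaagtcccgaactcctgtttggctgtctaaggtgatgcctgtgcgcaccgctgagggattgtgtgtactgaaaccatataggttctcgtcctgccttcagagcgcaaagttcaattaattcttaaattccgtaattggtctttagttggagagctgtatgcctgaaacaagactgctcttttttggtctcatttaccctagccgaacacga
Mrps18c: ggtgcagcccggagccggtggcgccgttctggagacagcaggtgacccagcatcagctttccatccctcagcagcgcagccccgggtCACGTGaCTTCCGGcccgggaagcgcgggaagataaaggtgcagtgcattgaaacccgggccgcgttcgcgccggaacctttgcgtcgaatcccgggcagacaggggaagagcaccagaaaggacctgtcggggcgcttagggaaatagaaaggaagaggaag
Mrpl39: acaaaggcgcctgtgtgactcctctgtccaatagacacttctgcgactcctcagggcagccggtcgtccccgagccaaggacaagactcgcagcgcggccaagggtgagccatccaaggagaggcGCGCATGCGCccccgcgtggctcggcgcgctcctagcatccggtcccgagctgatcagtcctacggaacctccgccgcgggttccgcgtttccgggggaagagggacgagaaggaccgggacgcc

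Mrpl51, Mrps27 and Mrps18c each hold an ETS motif, starting 90, 48 and 156 bases before the start. Mrpl39 holds an Nrf1 motif read on both strands in overlapping positions, 125 and 124 bases before the start, and Mrpl11 holds none of the 5. Among the 74 RefSeq promoters of 68 matched members, in windows of 300 bases (250 before and 50 after the start), 33.8% held the ETS motif, against 8.86% of all 32851 promoters. The Nrf1 motif stood in 21.6%, against 6.25% of all promoters, and the Yy1 motif in 14.9%, against 2.38%. The Sp1 motif stood in 52.7%, against 35.7%, and the E-box in 9.46%, against 7.15%. Counted by gene rather than by promoter, the E-box stood in 5 of 68 members (7.35%), level with all promoters. The base composition of the promoters was not matched. The 32 genes with a promoter that fell in either comparison and the 36 that did not held the ETS motif in 12 and 13 genes, Nrf1 in 7 and 9, Yy1 in 6 and 5, Sp1 in 16 and 18, and the E-box in 4 and 1. These differences were not tested. Promoters were not matched for Mrpl4, Mrpl13, Mrpl15, Mrpl19, Mrpl38, Mrpl54, Mrps28, Mrps34 and Mrps35.

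Members with special roles are described next. Mrps18a, Mrps18b and Mrps18c are related to bacterial S18 and occupy different places, Mrps18a in the large subunit and the other two in the small subunit. The nomenclature counts Mrps18c alone as the bacterial counterpart, so Mrps18a and Mrps18b stand among the genes without one in the counts above. Mrps18a read 8.76, 8.69 and 8.59 in adolescent cells, 8.98, 8.43 and 8.50 in adult cells and 8.70, 8.72 and 8.67 in aged cells, so its adolescent and aged arrays overlapped (0.02 ± 0.14). Mrps18b read 8.99, 9.37 and 9.37 in adolescent, 9.16, 9.30 and 9.36 in adult and 9.12, 8.64 and 8.70 in aged cells, with differences of 0.03 ± 0.15 in adult and -0.42 ± 0.15 in aged cells, neither of which passed (adjusted p = 0.88 and 0.0602). Mrps18c, shown above, fell in both. The differences between these 3 genes were not tested.

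Mrpl12, the stalk protein that also binds the mitochondrial RNA polymerase, read 8.71, 8.65 and 8.70 in adolescent, 8.74, 8.11 and 7.99 in adult and 8.41, 7.78 and 7.86 in aged cells. It fell in aged cells (-0.67 ± 0.19, adjusted p = 0.0268) and did not pass in adult cells (-0.41 ± 0.19, adjusted p = 0.139), where replicate 1 overlapped the adolescent arrays. Mrps30, a large-subunit protein despite its name, fell in aged cells (-0.76 ± 0.16) and adult cells (-0.71 ± 0.16). Mrpl58, a peptidyl-tRNA hydrolase that releases stalled ribosomes, read 7.99, 7.94 and 7.88 in aged cells, against 8.39, 8.50 and 8.54 in adolescent cells. Its aged call was marginal (-0.54 ± 0.18, adjusted p = 0.0494) and was lost with replicate number as a block (adjusted p = 0.0842). Mrps12, a protein of the decoding centre, and Mrpl44, which carries a fold of the ribonuclease III family, did not pass: the aged differences were -0.28 ± 0.12 (adjusted p = 0.138) and -0.30 ± 0.11 (adjusted p = 0.0738). Aged arrays lay below adolescent arrays for both.

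Mrps36 read 7.19, 7.31 and 6.97 in adolescent, 7.15, 6.02 and 5.96 in adult and 6.12, 6.44 and 6.25 in aged cells. It fell in aged cells (-0.88 ± 0.25, adjusted p = 0.0243) and, marginally, in adult cells (-0.78 ± 0.25, adjusted p = 0.0443). The adult call was lost with replicate number as a block (adjusted p = 0.057). Of the remaining genes called in aged but not in adult cells, Mrpl23 fell by -0.52 ± 0.16 and lost the call when arrays were scaled to equal spread (adjusted p = 0.167). Mrpl13, Mrpl20 and Mrpl36, singled out after their values were seen, fell as well in aged cells (-0.79 ± 0.24, -0.93 ± 0.27 and -0.61 ± 0.19) and had adult adjusted p values of 0.0527, 0.0519 and 0.0595. Genes called in adult but not in aged cells were Mrpl9, Mrpl19, Mrpl22, Mrpl32, Mrpl35, Mrpl45, Mrpl46, Mrps7, Mrps11 and Mrps33.

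**Figure D5:**
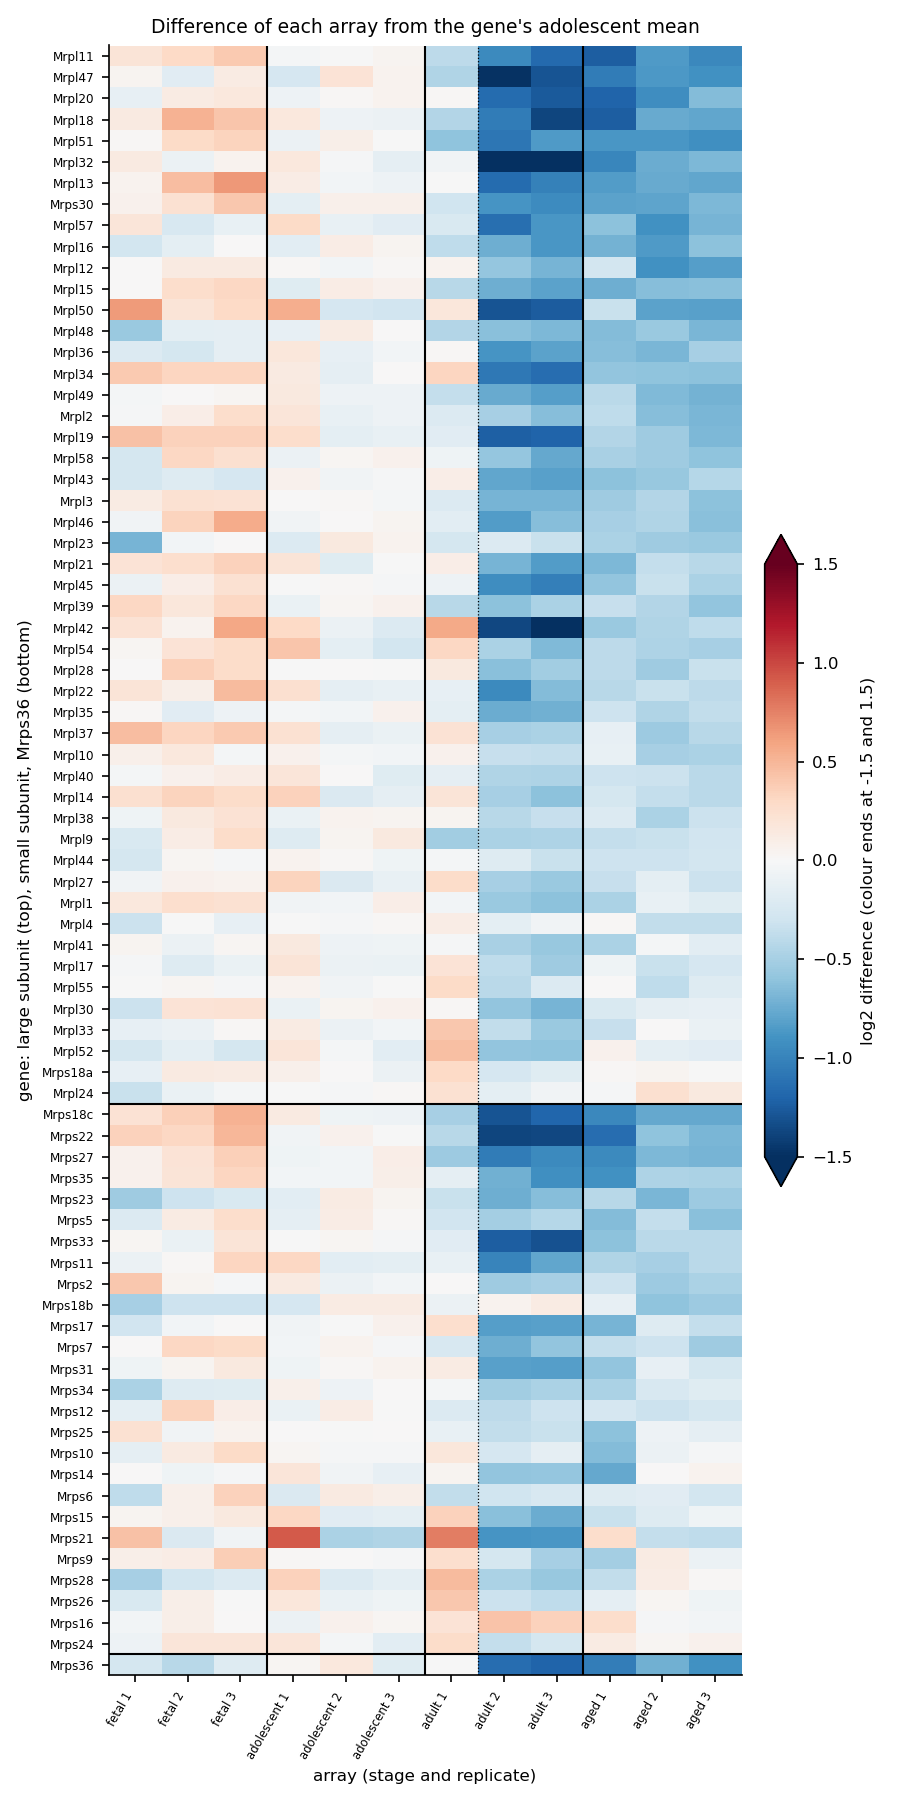
Log2 difference of each array (columns, in stage order) from the gene's adolescent mean, for 77 genes (rows, large subunit above, small subunit in the middle, Mrps36 at the bottom, sorted by the aged minus adolescent difference). Blue is lower and red higher; adult replicate 1, left of the dotted line, is paler than adult replicates 2 and 3 in most rows.

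Adult replicate 1 stood apart from adult replicates 2 and 3. It was above both of them for 72 of 77 genes (93.5%), against 44.2% of all genes, with a median difference of 0.63 (-0.03 over all genes) and a range of -0.19 to 2.12. It lay nearer to the adolescent mean than to the mean of adult replicates 2 and 3 for 66 genes (85.7%), against 70.5% of all genes. The mean of the 17 cell division genes was also intermediate on this array, at 8.07, where adult replicates 2 and 3 had 6.34 and 6.35 and the adolescent arrays 9.32 to 9.67. Arrays of adult replicates 2 and 3 are also those with the highest receptor signal. Whether adult replicate 1 differs in its cells, its RNA or its array was not tested.

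The largest gaps were those of Mrpl42, Mrps21, Mrpl32, Mrpl50 and Mrpl34. Mrpl42 read 7.78 on adult replicate 1 and 5.86 and 5.46 on the others, against 7.51, 7.12 and 7.01 in adolescent cells, and with 6.66, 6.76 and 6.84 in aged cells its adult difference (-0.85 ± 0.43) did not pass. Without adult replicate 1 that difference was -1.56 and passed (adjusted p = 4e-05). Mrpl32, whose maturation by a mitochondrial protease is a step in ribosome assembly, read 7.68, 6.07 and 6.04 in adult cells, against 7.88, 7.71 and 7.59 in adolescent cells; it had the largest adult difference of the set (-1.13 ± 0.33, adjusted p = 0.0293) although adult replicate 1 overlapped the adolescent arrays. Mrpl34 read 8.91, 7.51 and 7.44 in adult cells, against 8.72, 8.45 and 8.59 in adolescent cells. Mrpl50 read 8.54, 7.09 and 7.13 in adult cells, against 8.92, 8.12 and 8.09 in adolescent cells, and did not pass (-0.79 ± 0.34, adjusted p = 0.114). It passed with replicate number as a block (adjusted p = 0.02 in adult and 0.0406 in aged cells) and without adult replicate 1 (adjusted p = 0.000956 in adult and 0.0342 in aged cells).

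The 5 smallest gaps, with adult replicate 1 level with or below the others, were those of Mrpl23, Mrpl9, Mrps6, Mrps18b and Mrps16. Mrps6 read 7.33, 7.39 and 7.46 in adult cells, against 7.48, 7.82 and 7.78 in adolescent cells, and did not pass (-0.30 ± 0.16). Mrpl9 read 6.95, 6.99 and 7.00 in adult cells, against 7.28, 7.51 and 7.62 in adolescent cells, and fell (-0.49 ± 0.13, adjusted p = 0.0194). That call was lost after centring arrays on their medians (adjusted p = 0.0636). Mrps16, a small-subunit protein whose human gene is linked to a mitochondrial disease, was the sole member higher in every adult array: 7.91, 8.14 and 8.05 in adult cells, against 7.62, 7.77 and 7.73 in adolescent cells. Its difference of 0.33 ± 0.11 did not pass (adjusted p = 0.0514), and it passed when arrays were scaled to equal spread (0.50, adjusted p = 0.0176) and without adult replicate 1 (0.39, adjusted p = 0.0104).

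No member passed between aged and adult cells with all arrays in the fit. The median difference was 0.02 over the 77 genes and -0.01 over all genes, 44 differences were above 0, and 0 genes rose and 0 fell (3.28% and 0.216% of all genes). At an unadjusted p under 0.05 in limma there were 2 of 77, Mrps18b (-0.45 ± 0.15) and Mrps16 (-0.26 ± 0.11). Of all genes 3.5% passed even after adjustment. Without adult replicate 1 the median was 0.23, and 20 genes rose, a share near the 20.3% of all genes, and 2 fell (2.60%, against 19.1%). Aged arrays then lay above adult replicates 2 and 3 for 45 of 77 genes (58.4%), against 32.2% of all genes. The sign of the median turned with the treatment of the arrays: it was -0.11 after repeated quantile normalization and -0.06 after scaling to equal spread. Leaving out aged replicate 1 gave 2 calls (2.60%, against 11.1% of all genes).

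With adult replicate 1 left out, the rises in aged cells were led by Mrps33 (0.80 ± 0.10, adjusted p = 0.000821), Mrpl32 (0.87 ± 0.12, adjusted p = 0.001) and Mrpl42 (1.10 ± 0.18, adjusted p = 0.00211). Mrpl34, Mrpl19 and Mrpl45 followed with differences of 0.50, 0.66 and 0.51. The genes that fell in that fit were Mrps16 (-0.32 ± 0.11) and Mrps18b (-0.51 ± 0.15). The ± values of this fit are its own SE, with adult replicates 2 and 3 alone as the adult stage. The endothelial markers rose in the same comparison, 8 of 10 with all arrays and 10 of 10 without adult replicate 1. Of all genes 3.28% and 20.3% rose in these fits. The part of the endothelial markers was not tested.

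No member passed between adolescent and fetal cells with all arrays in the fit. The median difference was -0.07 over the 77 genes and 0.02 over all genes, differences ran from -0.39 to 0.37, and 0 genes rose and 0 fell, where 10.1% of all genes rose and 8.68% fell. At an unadjusted p under 0.05 in limma there were 4 of 77, while 18.8% of all genes passed even after adjustment. Without adult replicate 1 in the shared estimate of spread, Mrpl43 and Mrps23 rose and Mrpl13, Mrpl19, Mrpl34, Mrpl37, Mrps18c and Mrps22 fell (13.1% and 12.3% of all genes). Their differences lay between -0.39 and 0.36. The cell division list fell for 3 of 17 genes in this comparison (median -0.66), and all 12 satellite cell markers rose.

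Genes that work with the mitochondrial ribosome were compared as lists. In adult against adolescent cells 8 of 14 mitochondrial translation factors fell and 0 rose (median -0.51), where 15.2% of all genes fell and 4.56% rose. The 4 with the smallest p were Taco1 (-0.59 ± 0.15), a translational activator, Tsfm (-0.55 ± 0.15) and Tufm (-0.50 ± 0.13), which together form an elongation factor cycle, and Gfm1 (-0.80 ± 0.22), the translocase. In aged against adolescent cells 4 of 14 fell (median -0.32), where 11.5% of all genes fell. The 4 were Tufm (-0.58 ± 0.13), Taco1 (-0.63 ± 0.15), Mtfmt (-0.59 ± 0.14), which formylates the initiator tRNA, and Tsfm (-0.50 ± 0.15). Among 4 mitoribosomal subunits with other names, Dap3, Chchd1 and Ptcd3 fell in adult cells (-0.63 ± 0.14, -0.83 ± 0.19 and -0.56 ± 0.14), and Dap3 and Chchd1 fell in aged cells (-0.49 ± 0.14 and -0.68 ± 0.19). Gadd45gip1 passed in neither.

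Assembly factors and tRNA synthetases had smaller medians. Of 29 assembly factors 6 fell in adult cells (20.7%, against 15.2% of all genes, median -0.28) and 5 in aged cells (17.2%, against 11.5%, median -0.14), shares near those of all genes. Afg3l2, a subunit of the protease that matures Mrpl32, fell in both (-0.40 ± 0.09 in adult and -0.48 ± 0.09 in aged cells), as did Ngrn (-0.47 ± 0.13 and -0.55 ± 0.13), which is needed for the ribosomal RNA of the large subunit. Of 19 synthetases and amidotransferase subunits 4 fell in adult cells (21.1%, against 15.2% of all genes, median -0.16) and 3 in aged cells (15.8%, against 11.5%, median -0.09), again near all genes, with Qrsl1 (-0.69 ± 0.16 and -0.68 ± 0.16) and Sars2 (-0.58 ± 0.15 and -0.57 ± 0.15) in both. No gene of these 2 lists rose in either comparison.

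The respiratory chain subunits encoded in the nucleus, partners of the mitoribosome's products, were also lower in aged cells and on adult replicates 2 and 3. Their mean was 9.76, 9.84 and 9.89 in fetal, 9.91, 9.74 and 9.74 in adolescent, 9.73, 9.02 and 9.01 in adult and 9.28, 9.29 and 9.33 in aged cells. Of 49 genes 24 fell in adult cells (median -0.54) and 23 in aged cells (median -0.49), where 15.2% and 11.5% of all genes fell. Atp5a1 (-0.64 ± 0.09 and -0.78 ± 0.09) and Sdhd (-1.03 ± 0.15 and -1.27 ± 0.15) were among them. For the cytosolic ribosome no protein gene fell: of 54 genes 3 rose in adult cells (5.56%, near the 4.56% of all genes, median 0.15) and 17 in aged cells (31.5%, against 8.08%, median 0.22), among them Rpl37a (0.40 ± 0.11 and 0.64 ± 0.11) and Rps28 (0.42 ± 0.11 and 0.58 ± 0.11). The cytosolic list averaged 11.12 on adult replicate 1 and 10.93 on each of the other adult arrays. The difference between the cytosolic and mitochondrial lists was not tested.

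Regulators of mitochondrial transcription and biogenesis were mixed. Of 17 genes, Tefm, a mitochondrial transcription elongation factor (-0.57 ± 0.13), and Gabpb1, a subunit of the ETS factor Gabp (-0.61 ± 0.15), fell in adult cells. In aged cells Tefm fell (-0.47 ± 0.13), and Myc (0.80 ± 0.13) and Polg2, the accessory subunit of the mitochondrial DNA polymerase (0.94 ± 0.19), rose. Over all genes 15.2% fell in adult cells, and 11.5% fell and 8.08% rose in aged cells. The counts among the 17 regulators lie near or below these shares. Nrf1 (0.08 ± 0.11), Yy1 (0.06 ± 0.11) and Gabpa (-0.14 ± 0.15), whose motifs were searched above, did not pass in aged against adolescent cells.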

How the data were processed

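RMA summaries were made in Affymetrix Expression Console 1.2.1.20, per the submitters' processing notes. The authors' deposited log2 values were taken without further normalization. The genome build is not given in the sources used here. Per the labels' protocols, 100 ng of RNA per replicate was amplified and labelled with biotin.

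Of 35556 probe sets 21789 carried 1 symbol, 1621 several and 12146 were not named here. The probe set with the highest mean stood for each of 19938 genes, and 999 genes had several. limma 3.58.1 in R 4.3.3 was fitted to all 12 arrays with 1 coefficient per stage (8 residual degrees of freedom, no replicate block), and p-values were adjusted by Benjamini-Hochberg over 19938 genes with a threshold of 0.05. The words rose and fell refer to genes that passed. The method was first tested on simulated data. The number of arrays limits the precision.

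Members, gene lists, naming rule and comparisons were chosen with earlier results of these data known. Named are up to 10 genes with the smallest p in each comparison, the 5 largest and 5 smallest gaps of adult replicate 1, 9 fixed members, and the 4 smallest p of a list. Also named are members with the 5 highest and 5 lowest means, although levels of different genes are not compared, and any other gene is said to be chosen after its values were seen or belongs to a complete list of calls. RefSeq promoters (GRCm38.p6) matched 68 of 77 members by symbol.

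Deviations from stage means correlated between equal replicate numbers of adolescent and adult arrays at 0.362, 0.317 and 0.239 across genes. For this a fit with replicate number as a block was made. Adolescent 2 with adult 3 (0.293) and adolescent 3 with adult 2 (0.24) correlated similarly, and replicate 1 with 2 or 3 at -0.336 to -0.264. Between adolescent and adult arrays the values thus set replicate 1 apart from replicates 2 and 3 and do not pair arrays by number. Deviations sum to 0 within a stage, so these correlations depend on each other. Fetal and adult arrays had another pattern: equal numbers correlated at 0.046, 0.273 and -0.223, and fetal 3 with adult 1 at 0.247. Equal numbers of fetal and aged arrays gave -0.04, -0.282 and 0.098. The labels state no pairing. Between fetal and adolescent arrays equal numbers correlated at 0.176, 0.197 and 0.029, and fetal 2 with adolescent 3 at 0.196. Equal numbers of adult and aged arrays gave -0.435, -0.393 and -0.237, and those of adolescent and aged arrays -0.166, -0.184 and -0.032. Alternatives were repeated quantile normalization, centring on medians, leaving out genes under 6 in every stage, averaging a gene's probe sets, fitting 2 stages at a time, trended and robust variance, array weights, the block, replicates 2 and 3 averaged, and leaving out each array. Leaving out the 3 arrays of raised receptor signal and scaling to equal mean and SD were added after seeing the data.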

Additional observations from a re-analysis of the deposited data

How the results depend on the processing

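With all arrays 0 of 77 genes passed for adolescent over fetal cells, 30 for adult over adolescent, 0 for aged over adult and 26 for aged over adolescent cells, and values below keep that order. Array weights, whose estimation stopped before it converged, gave 30, 74, 59 and 67, and 77 by the F-test, against 44. Array weights also called 40.3%, 75.7%, 79.1%, 66.5% and 95.1% of all genes, so its 59 of 77 (76.6%) is no excess. A fit of the 2 stages alone gave 10 in adolescent against fetal cells, a share below the 27.2% of all genes. It gave 14 in adult against adolescent cells (18.2%, against 10.8%) and 42 in aged against adolescent cells (54.5%, against 22.5%). Repeated quantile normalization gave 1 in adolescent against fetal cells (1.3%, against 20.7%) and 17 in adult against adolescent cells (22.1%, against 19.9%). Averaging replicates 2 and 3, which leaves fewer arrays, gave 0 in adult against adolescent cells (against 1.62% of all genes). It gave 2 in aged against adolescent cells (2.6%, against 5.63%) and 9 by the F-test (11.7%, against 17.2%). Without the 3 arrays of raised receptor signal 12 genes (15.6%, against 29.6% of all genes) passed in adolescent against fetal cells. In aged against adolescent cells 46 (59.7%, against 31.9%) passed. The aged minus adolescent median was -0.35 after quantile normalization and -0.36 after scaling to equal spread.

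Leaving out single arrays gave 0 to 8, 13 to 67, 0 to 22 and 15 to 50 genes, with medians from -0.14 to -0.02, -0.65 to -0.33, -0.09 to 0.23 and -0.45 to -0.39, and 30 to 66 genes by the F-test. The highest counts all came without adult replicate 1, where calls over all genes rose too. The 8 (10.4%, against 25.3% of all genes) and the 22 (28.6%, against 39.3%) lay below the shares of all genes. The 67 (87%, against 54%), the 50 (64.9%, against 27.4%) and the 66 (85.7%, against 71.2%) lay above them. Without adolescent replicate 1 the first comparison gave 1. Under the replicate block 27 genes (35.1%, against 17.3% of all genes) passed in the second comparison and 25 (32.5%, against 18.5%) in the last. Among the genes chosen by the naming rule, the block changed calls of Mrps36, Mrpl50 and Mrpl58 alone. Genes outside that rule, which appear in the complete lists of calls, were not followed singly. Some of them lost a call under the block, since the 27 and the 25 include gains of Mrpl50. The adult minus adolescent median, -0.46 with all arrays, was -0.21 after quantile normalization and -0.30 after scaling to equal spread. It and the aged minus adolescent median stayed below 0 in every alternative run. Of the values under alternatives of genes chosen by the naming rule, 475 kept a call and 103 lost one. A further 1468 stayed without a call and 130 gained one. Causes were not tested.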

Other observations

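Replicate 1 was the highest of its stage in all 4 stages for 8 of the 77 genes (10.4%), against 2.96% of all genes: Mrpl17, Mrpl19, Mrpl34, Mrpl37, Mrpl50, Mrpl57, Mrps2 and Mrps21. These genes were picked after their values were seen. Mrps21, a small-subunit protein, was the clearest. It read 9.62 on fetal replicate 1 and 8.97 and 9.13 on the others, 10.11 on adolescent replicate 1 and 8.71 and 8.73 on the others, 9.95 on adult replicate 1 and 8.30 and 8.31 on the others, and 9.44 on aged replicate 1 and 8.82 and 8.81 on the others. Its differences between stages (-0.33 ± 0.44 in adult and -0.16 ± 0.44 in aged against adolescent cells) were smaller than this spread. Over the 77 genes, replicates 2 and 3 of a stage correlated at 0.987, 0.994, 0.989 and 0.989 across genes in fetal, adolescent, adult and aged cells, and replicate 1 correlated with them at 0.876 to 0.958. All genes had the same split, at 0.997, 0.999, 0.996 and 0.997 for replicates 2 and 3 and 0.972 to 0.993 for replicate 1 with them. Genes are not independent replicates, and the cause was not tested.

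Of the members 8 have 2 probe sets. Mrpl23 gave -0.27 and -0.28 in adult and -0.52 with both in aged against adolescent cells, and Mrps36 gave -0.78 and -0.74 in adult cells. Mrps5 gave -0.41 and -0.65 in adult and -0.54 and -0.72 in aged cells. Mrps33 gave -0.91 and -0.65 in adult and -0.47 and -0.22 in aged against adolescent cells, and Mrpl41 gave -0.36 and -0.03 in adult cells. RefSeq lists pseudogene copies of Mrpl23, Mrpl27, Mrpl48, Mrpl51 and Mrps36, and signal from near-identical copies cannot be told apart on the array. Mrpl53 was read only by a probe set shared with Ccdc142 and was left out of the 77. That probe set stood at 7.01 to 7.35 over all 12 arrays.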
